A study of Mus musculus with 50 samples.

Results

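Tracheal perfusate of mice that carried IL-13 and lacked Stat6 (Stat6-/-, 5 arrays) was compared with tracheal perfusate of mice given phosphate-buffered saline (PBS, 5 arrays), which are 10 of the 50 arrays of the series. The members were taken from the array titles, and the comparison asks what differed from the saline group when IL-13 was present without Stat6. RNA flushed from the trachea was amplified in 1 round and hybridised on spotted arrays with 2 channels, a reference in the first and the sample in the second, and each value is a log2 ratio of the pair. The amplification is not stated in the label of PBS replicate 22. A further 3 perfusate groups of 5 arrays each, IL-13 with Stat6+/-, IL-13 with Stat6-/- and the mark Epi+, and ovalbumin (OVA), entered the same fit and are shown beside the results. The labels give the IL-13 groups as IL-13 together with a Stat6 genotype, and they give no genotype for the PBS and OVA mice, so an effect of IL-13 and an effect of the Stat6 genotype or strain cannot be told apart. No source used here gives strain, age or sex. In mouse lines of this name IL-13 comes from a transgene and Epi+ is a transgene that restores Stat6 in airway epithelium, as background that the labels do not state. Whether each array stands for its own animal is not stated, and the p-values therefore measure only how these samples vary, which can be technical variation.

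IL-13 is a cytokine of type 2 immunity that acts on airway epithelium through a receptor made of the IL-4 receptor alpha chain and Il13ra1. The receptor activates the transcription factor Stat6, which switches on mucus genes such as Muc5ac and Clca1. Cells also carry chaperones, proteins that help other proteins fold: Hsp70 proteins work with J-domain partners and with exchange factors such as Hsph1, the chaperonin Hspd1 works with its lid Hspe1 inside mitochondria, and the transcription factor Hsf1 raises many of these genes under proteotoxic stress by binding inverted repeats of the letters GAA.

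Each array held between 16767 and 18655 values, and each was centred on its own median. The medians as deposited ran from -0.75 to 0.30 over the 10 arrays, and centring removed a shift of -0.20 between the group means, so every difference below is relative to the typical probe. The labels do not settle the direction of the ratio; sample over reference was taken as likely, since Il13 then rises in the arrays labelled IL-13. Correlations between pairs of the 10 arrays over 14084 probes ran from -0.08 to 0.66. PBS replicate 25 stood apart, with a correlation of 0.11 to the mean of the other PBS arrays against 0.36 to 0.62 for the other 4. In the Stat6-/- group, replicate 12 had the lowest such correlation, 0.18 against 0.53 to 0.70.

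A gene was called where limma's adjusted p, over 16873 probes, was under 0.05. By this rule 101 probes (0.599%) differed between Stat6-/- IL-13 and PBS perfusate, 51 higher (0.302%) and 50 lower (0.296%), and 3289 (19.5%) had an unadjusted p under 0.05, 10.2% of all probes higher and 9.28% lower. Quantile normalization in place of centring called 264, of which 176 were higher and 88 lower. Called differences had sizes between 0.58 and 3.41 on the log2 scale with a median of 0.95, and 45 exceeded 1. The same direction was seen in all 5 reference preparations (every preparation had 1 array from both groups) for 95 of the 101 probes. The calls were made on these same arrays, so this count is largely fixed by the selection and is no separate evidence. Values of the groups did not overlap for 53 of the called probes and for 333 of all tested probes (1.97%). Among the called probes 87 had 1 gene symbol, 43 higher and 44 lower.

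The number of calls depended on single arrays. It fell to 12 without PBS replicate 22, 15 without 24, 22 without 23 and 69 without 26, and to between 20 and 47 without Stat6-/- replicate 10, 11, 13 or 14. It rose to 202 without PBS replicate 25 and to 547 without Stat6-/- replicate 12. Of the 87 called probes with 1 symbol, 9 kept their call whichever of the 10 arrays was left out: Il13, Hsph1, Hspe1 and Cacybp, which were higher, and Scd2, Arl2bp, C1ra, Cd7 and Micalcl, which were lower. The median called gene kept its call in 3 of the 10 fits.

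**Figure D1:**
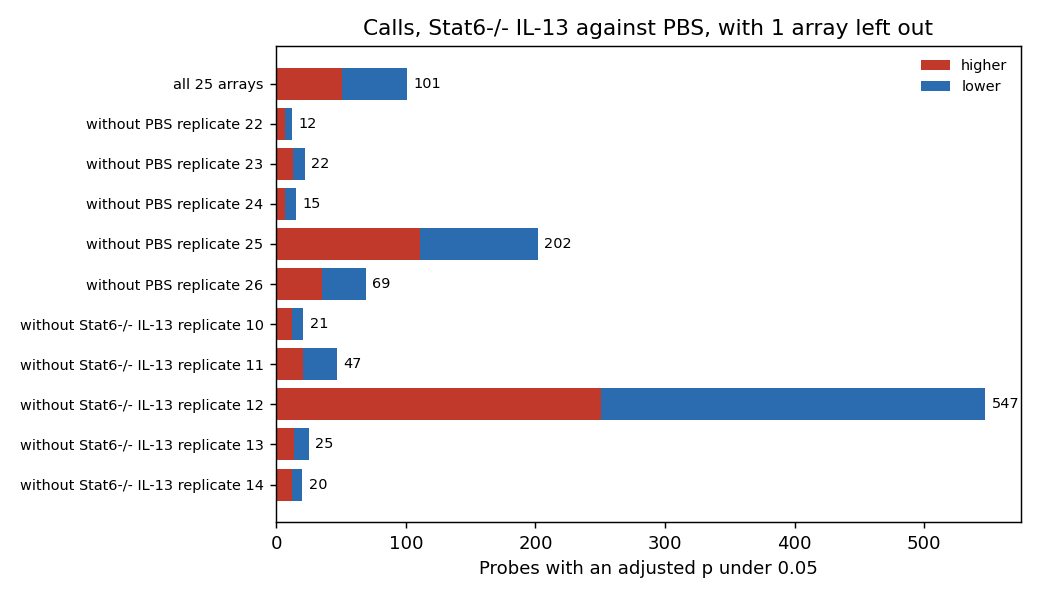
Number of probes with an adjusted p under 0.05 for Stat6-/- IL-13 against PBS perfusate in all 25 arrays and with 1 of the 10 arrays of both groups left out; red bars are probes higher and blue bars probes lower in Stat6-/- IL-13. The count ran from 12 without PBS replicate 22 to 547 without Stat6-/- replicate 12, against 101 in all arrays.

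**Figure D2:**
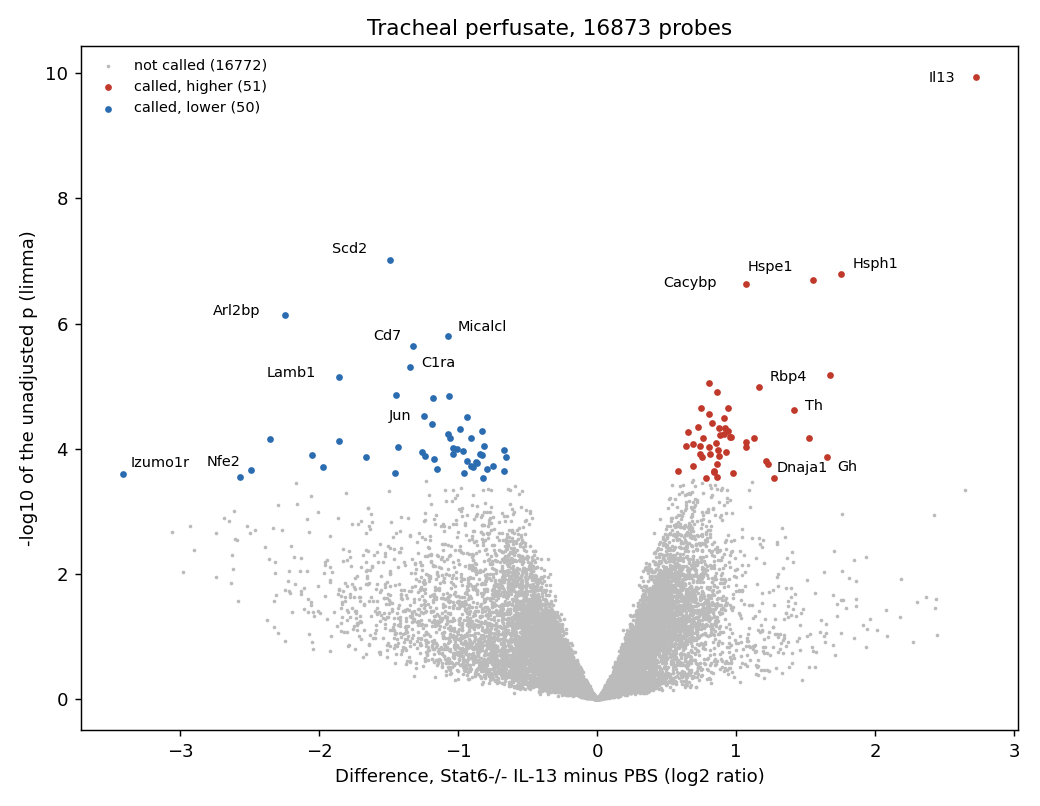
Difference between Stat6-/- IL-13 and PBS perfusate (log2 ratio, horizontal) against -log10 of limma's unadjusted p (vertical) for 16873 probes. The 51 probes called higher are red and the 50 called lower are blue; Il13 stands at 2.72, and Hsph1, Hspe1, Cacybp, Scd2 and Arl2bp follow it in height.

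Il13 is given first because the labels name it. Its direction was fixed by the way the ratio was read, so only the separation of the groups is informative. It stood at 0.48, 0.11, 0.19, -0.37 and -0.22 in PBS replicates 22 to 26 and at 3.17, 2.06, 3.41, 2.39 and 2.76 in Stat6-/- replicates 10 to 14. The lowest Stat6-/- array lay above the highest PBS array, and the difference was 2.72 ± 0.21 (SE; 95% interval 2.27 to 3.17, 6.60-fold; limma adjusted p = 1.94e-06). Il13 averaged 1.77 in Stat6+/- and 2.09 in Epi+ arrays, and it was higher in Stat6-/- than in Stat6+/- arrays by 0.99 (limma adjusted p = 0.012), while the difference from Epi+ arrays, 0.67, did not pass (limma adjusted p = 0.26). The Stat6 probe did not separate the Stat6-/- from the PBS arrays, whose genotype is not given. It ran from 0.33 to 1.32 in Stat6-/- and from 0.22 to 1.26 in PBS arrays, with a difference of 0.03 ± 0.14 (limma adjusted p = 0.93), and where the probe lies relative to the disrupted part of the gene is not known here, so it checks nothing about the genotype.

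Chaperone genes were the group with the most calls in 1 direction among the 39 gene lists. Of 20 heat shock genes tested, 4 rose (Hsph1, Hspe1, Dnaja1 and Hspb8) and none fell, beside 0.302% of all probes that were called higher; 11 had an unadjusted p under 0.05, 9 higher and 2 lower. The median over the list's probes was 0.42, beside -0.02 over all probes. Over 29 alternatives the count of heat shock genes called higher ran from 0 to 6. It was 1 with values as deposited and 0 in a fit of the 10 arrays of both groups alone. The mean level of 19 heat shock probes on each array ran from -0.32 to -0.08 in PBS and from 0.01 to 0.42 in Stat6-/- arrays. These means did not overlap, and a few members with large differences can carry a mean. In the other groups the list's means ran from 0.18 to 0.42 (Stat6+/-), from -0.27 to 0.16 (Epi+) and from -0.61 to -0.11 (OVA). The Epi+ range thus overlapped that of PBS.

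Hsph1, an Hsp110 chaperone that exchanges nucleotide on Hsp70, stood at -0.76, -1.06, -0.54, -0.92 and -0.89 in the PBS arrays and at 0.94, 1.82, 0.15, 1.03 and 0.68 in the Stat6-/- arrays. All Stat6-/- arrays lay above all PBS arrays, and the difference was 1.76 ± 0.22 (3.38-fold; limma adjusted p = 7.8e-04). Hspe1, the mitochondrial Hsp10 that closes the Hspd1 chamber, stood at -1.02, -0.53, -0.75, -0.45 and -0.94 in PBS and at 1.37, 0.58, 0.29, 0.93 and 0.89 in Stat6-/- arrays. The groups were again separate, with a difference of 1.55 ± 0.19 (2.93-fold; limma adjusted p = 7.8e-04). Without any 1 array the difference stayed between 1.60 and 1.93 for Hsph1 and between 1.40 and 1.73 for Hspe1, and limma's adjusted p was at most 0.0054 for both. Of 20 other alternatives Hspe1 kept its call in 19 and Hsph1 in 18. Both lost it in a fit of the 10 arrays of both groups alone, and Hsph1 also with values as deposited. The other groups that held IL-13 had high levels of both genes too. Hsph1 averaged 1.00 in Stat6+/-, 1.17 in Epi+ and -0.68 in OVA arrays, and Hspe1 averaged 0.78, 0.82 and -0.78 in the same order. Stat6-/- minus Stat6+/- came to -0.08 ± 0.22 for Hsph1 and 0.04 ± 0.19 for Hspe1, and Stat6-/- minus OVA to 1.61 ± 0.22 and 1.59 ± 0.19 (limma adjusted p = 6.0e-04 and 2.2e-04).

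Dnaja1, a J-domain partner of Hsp70, rose by 1.21 ± 0.26 (limma adjusted p = 0.035). It stood at -0.74, -0.56, -0.43, 1.30 and -0.57 in PBS and at 1.06, 2.16, 0.18, 1.48 and 0.18 in Stat6-/- arrays. PBS replicate 25 was the only PBS array above 0 for this gene and lay above 3 of the Stat6-/- arrays. Hspb8, a small heat shock protein that works with Bag3 in clearing misfolded protein, rose by 0.98 ± 0.22 (limma adjusted p = 0.044), from between -0.94 and -0.15 in PBS to between -0.23 and 0.99 in Stat6-/- arrays. Both calls depended on single arrays. The Dnaja1 difference ran from 1.04 to 1.32 and its adjusted p reached 0.15 when single arrays were left out, and its call held without PBS replicate 25 or 26 or Stat6-/- replicate 12 but not without any of the other 7. The Hspb8 difference ran from 0.80 to 1.05, its adjusted p reached 0.16, and its call held in 1 of the 10 fits, that without Stat6-/- replicate 12.

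The other heat shock genes did not pass. Hspd1, the chaperonin partner of Hspe1, stood at -0.51, -0.34, -0.74, 1.44 and -0.37 in PBS and at 1.94, 1.26, 0.22, 1.77 and 0.78 in Stat6-/- arrays, a difference of 1.30 ± 0.39 (limma adjusted p = 0.11). Here too PBS replicate 25 lay inside the Stat6-/- range while the other 4 PBS arrays lay below it. Hspa4l, an Hsp110 relative, differed by 0.84, the collagen chaperone Serpinh1 by 0.71, Hsp90aa1 by 0.62 and its co-chaperone Stip1 by 0.59, with limma adjusted p between 0.10 and 0.17. The inducible Hsp70 genes and the J-protein that is usually raised with them showed no common direction: Hspa1a differed by -0.89 ± 0.42, Hspa1b by 1.51 ± 0.85 over 3 Stat6-/- arrays, Dnajb1 by -0.21 ± 0.23, Bag3 by 0.42 ± 0.21, and the constitutive Hspa8 by -0.92 ± 0.37, none of them called (limma adjusted p between 0.19 and 0.63). Hspa1a and Hspa1b are near-identical copies whose probes may share signal.

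**Figure D3:**
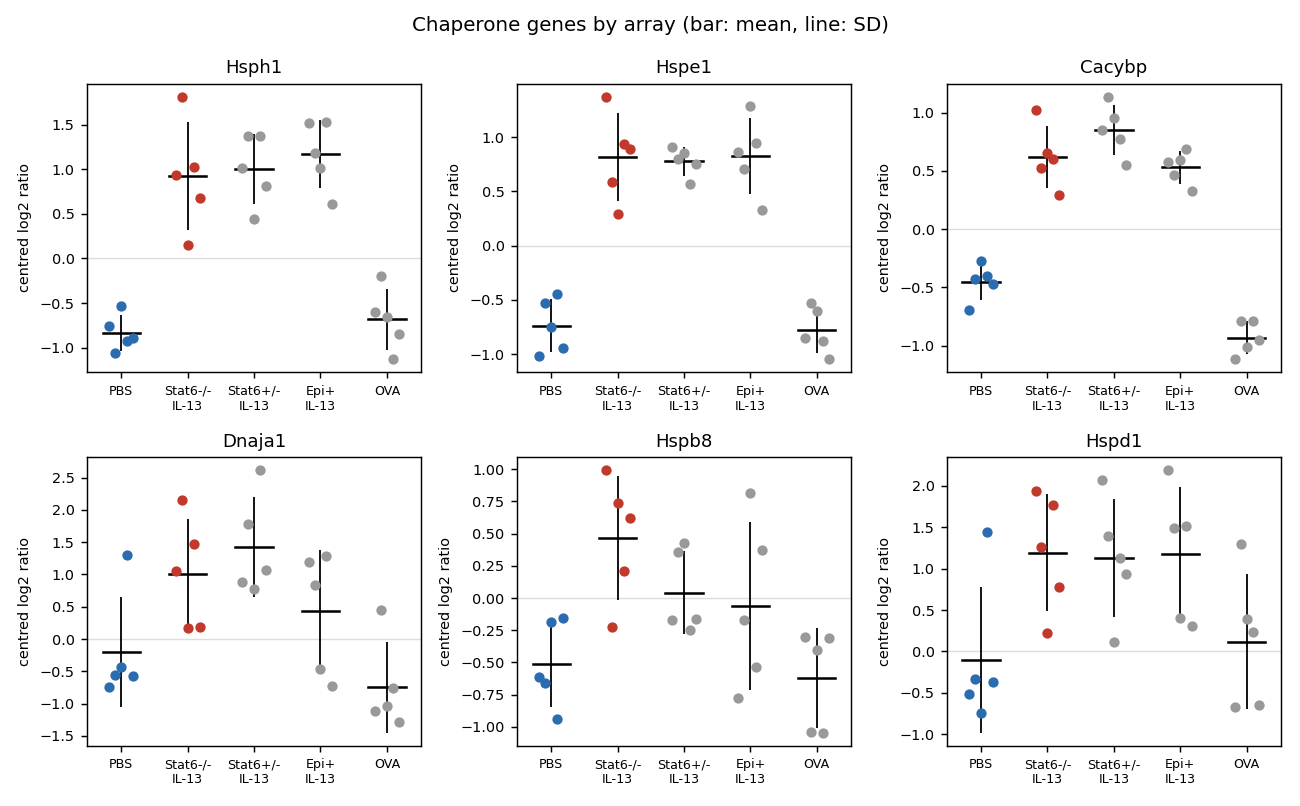
Centred log2 ratio (vertical) of 6 chaperone genes on each array of the 5 perfusate groups; horizontal bars are group means and vertical lines the SD. Hsph1, Hspe1 and Cacybp are higher on every Stat6-/- IL-13 array than on any PBS array, while PBS replicate 25 lies at 1.30 for Dnaja1 and 1.44 for Hspd1, above the other PBS arrays.

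The promoters of the 4 heat shock genes that rose are shown because heat shock genes are known to be raised through repeats of GAA and its complement TTC. They are the 250 bases before a listed start, on the gene's strand, from RefSeq on GRCm38.p6; the window is chr1:55087898-55088147 on the plus strand for Hspe1, chr5:149636337-149636586 on the minus strand for Hsph1, chr4:40722218-40722467 on the plus strand for Dnaja1 and chr5:116422865-116423114 on the minus strand for Hspb8. Capitals mark matches to GAANNTTC or TTCNNGAA, 2 inverted units 2 bases apart, each motif being its own reverse complement.
Hspe1: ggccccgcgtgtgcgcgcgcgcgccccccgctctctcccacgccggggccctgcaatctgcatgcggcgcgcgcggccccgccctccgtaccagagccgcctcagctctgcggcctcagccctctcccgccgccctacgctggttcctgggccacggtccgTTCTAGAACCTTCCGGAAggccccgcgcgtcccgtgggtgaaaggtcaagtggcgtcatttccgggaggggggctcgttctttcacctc
Hsph1: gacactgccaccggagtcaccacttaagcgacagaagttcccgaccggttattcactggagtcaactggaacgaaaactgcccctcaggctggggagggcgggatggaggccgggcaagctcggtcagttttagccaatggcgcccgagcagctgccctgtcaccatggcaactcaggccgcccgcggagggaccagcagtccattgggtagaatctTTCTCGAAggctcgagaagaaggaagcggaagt
Dnaja1: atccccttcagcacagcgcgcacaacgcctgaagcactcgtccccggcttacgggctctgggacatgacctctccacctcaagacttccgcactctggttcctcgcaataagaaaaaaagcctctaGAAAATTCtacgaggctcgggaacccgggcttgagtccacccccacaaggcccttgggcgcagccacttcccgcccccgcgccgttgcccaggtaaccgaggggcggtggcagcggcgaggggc
Hspb8: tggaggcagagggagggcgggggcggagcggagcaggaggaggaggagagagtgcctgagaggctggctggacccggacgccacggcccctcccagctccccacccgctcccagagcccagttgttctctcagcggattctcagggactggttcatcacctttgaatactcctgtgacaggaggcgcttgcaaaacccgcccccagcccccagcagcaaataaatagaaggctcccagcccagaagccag
The Hspe1 window held 3 overlapping matches between 89 and 72 bases before the start, which make up both 3-unit forms, GAANNTTCNNGAA and TTCNNGAANNTTC. Hspd1 is transcribed the other way from the same stretch, and the window of 1 of its 2 listed starts holds the same matches. The Hsph1 window held 1 match 33 to 26 bases before its start, the Dnaja1 window 1 match 124 to 117 bases before, which the windows of its other 2 of 3 listed starts did not hold, and the Hspb8 window none. A 2-unit match was found in 12.8% of all 32851 promoter windows and a 3-unit match in 0.466%. By gene, 8 of 17 measured heat shock genes with a window held a 2-unit match in at least 1 window, and 14.5% of all genes did. Among called genes with a window it was 6 of 35 that rose and 3 of 36 that fell. The spacing bound by Stat6, TTCNNNNGAA, was found for 2 of the 35 and none of the 36, beside 6.76% of all genes. A match is a description of these letters and not a binding site.

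Other genes of protein folding and turnover were called higher, and of these Cacybp and Psma4 entered by the rule on the largest differences, while St13, Cct7 and Dnajb2 were picked after their values were seen. Cacybp, a calcyclin-binding co-chaperone, stood between -0.69 and -0.27 in PBS and between 0.29 and 1.02 in Stat6-/- arrays. The groups were separate by a difference of 1.07 ± 0.14 (2.10-fold; limma adjusted p = 7.8e-04), which stayed between 0.94 and 1.12 whichever array was left out. Of 19 other alternatives it kept its call in 16. The call was lost with values as deposited, in the 10 arrays of both groups alone and with low Y-linked signal as a covariate. Cacybp averaged 0.85 in Stat6+/-, 0.53 in Epi+ and -0.93 in OVA arrays. Psma4, a subunit of the proteasome core, rose by 0.97 ± 0.19, Cct7, a subunit of the cytosolic chaperonin, by 0.80 ± 0.16, and the Hsp70 partners St13 and Dnajb2 by 0.69 ± 0.15 and 0.69 ± 0.14 (limma adjusted p between 0.026 and 0.038). Each was higher on all Stat6-/- arrays than on any PBS array. The calls of Psma4 and Cct7 held in 4, and those of St13 and Dnajb2 in 2, of the 10 fits without 1 array, and each was lost, among others, without PBS replicate 22, 23 or 24 or Stat6-/- replicate 13 or 14, with adjusted p up to 0.11.

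Stress pathways beyond the cytosolic and mitochondrial chaperones had few calls. Over all probes 0.599% were called, so a list of this size can hold no call without differing from that share. Of 29 endoplasmic reticulum stress genes none was called by limma, and 11 had an unadjusted p under 0.05, 9 higher and 2 lower. Over all probes 19.5% had such a p, 10.2% higher and 9.28% lower. The list's median was 0.12. Hspa5, the Hsp70 of the endoplasmic reticulum, ran from -0.51 to -0.11 in PBS and from -0.10 to 0.97 in Stat6-/- arrays, a difference of 0.69 ± 0.16 that missed the threshold (limma adjusted p = 0.052). The stress sensor kinase Ern1 differed by -0.996 ± 0.328, Trib3 by 0.67 ± 0.26 and Sel1l, a part of the degradation machinery, by -0.57 ± 0.16, none of them called. No member of the 21 oxidative stress genes was called by limma, 5 had an unadjusted p under 0.05, and thioredoxin Txn1 (0.56 ± 0.15) and catalase Cat (-0.66 ± 0.21) lay among the largest differences.

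Immediate early genes, which respond within minutes to handling and stress signals, had 2 calls of 35 in opposite directions. Over all probes 0.599% were called. Jun, a subunit of AP-1, fell by 1.19 ± 0.22 on the log2 scale (2.28-fold; limma adjusted p = 0.026). It stood at 0.28, -0.22, -0.93, -1.47 and -0.11 in PBS and at -1.79, -1.69, -1.79, -1.77 and -1.34 in Stat6-/- arrays, and PBS replicate 25 lay among the Stat6-/- values. Gadd45g, a growth arrest gene induced by stress, rose by 0.88 ± 0.18 (limma adjusted p = 0.032), from between -1.14 and -0.22 to between 0.00 and 0.53, with no overlap. The call of Jun was lost without PBS replicate 22, 23 or 24 or Stat6-/- replicate 10, 13 or 14 (adjusted p up to 0.088), and that of Gadd45g without each array but PBS replicate 25 and Stat6-/- replicate 12 (up to 0.12). Ccn1 (-0.97 ± 0.36), Zfp36l1 (-1.11 ± 0.35) and Fosl1 (1.07 ± 0.69) did not pass. The list's median was -0.06.

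Genes that respond to IL-13 through Stat6 were not called. None of 28 such genes passed in limma, 3 had an unadjusted p under 0.05 (1 higher, 2 lower), and the list's median was -0.19. Over all probes 0.599% were called and 19.5% had an unadjusted p under 0.05. The lack of calls among 28 genes therefore does not set this list apart. Clca1, a secreted mucus protein, stood at -0.39, -1.19, -1.75, -1.75 and -0.30 in PBS and at -1.80, -1.87, -2.09, -2.05 and -2.13 in Stat6-/- arrays. Every Stat6-/- array lay below every PBS array, yet the difference of -0.91 ± 0.31 did not pass (95% interval -1.55 to -0.27; limma adjusted p = 0.14). The same gene averaged 1.78 in Stat6+/-, 1.76 in Epi+ and 2.32 in OVA arrays. Muc5ac, the main secreted mucin of goblet cells, differed from PBS by -0.76 ± 0.32 over 4 PBS arrays, and it averaged -0.61 in Stat6-/- against 2.77 in Stat6+/-, 1.83 in Epi+ and 2.96 in OVA arrays. The macrophage and epithelial protein Retnla differed by -1.13 ± 0.55, periostin (Postn) by -0.90 ± 0.59, the prostaglandin synthase Hpgds by 0.63 ± 0.32, Serpinb2 by 0.78 ± 0.36 and the eosinophil chemokine Ccl11 by 0.89 ± 0.49, with limma adjusted p between 0.24 and 0.41.

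**Figure D4:**
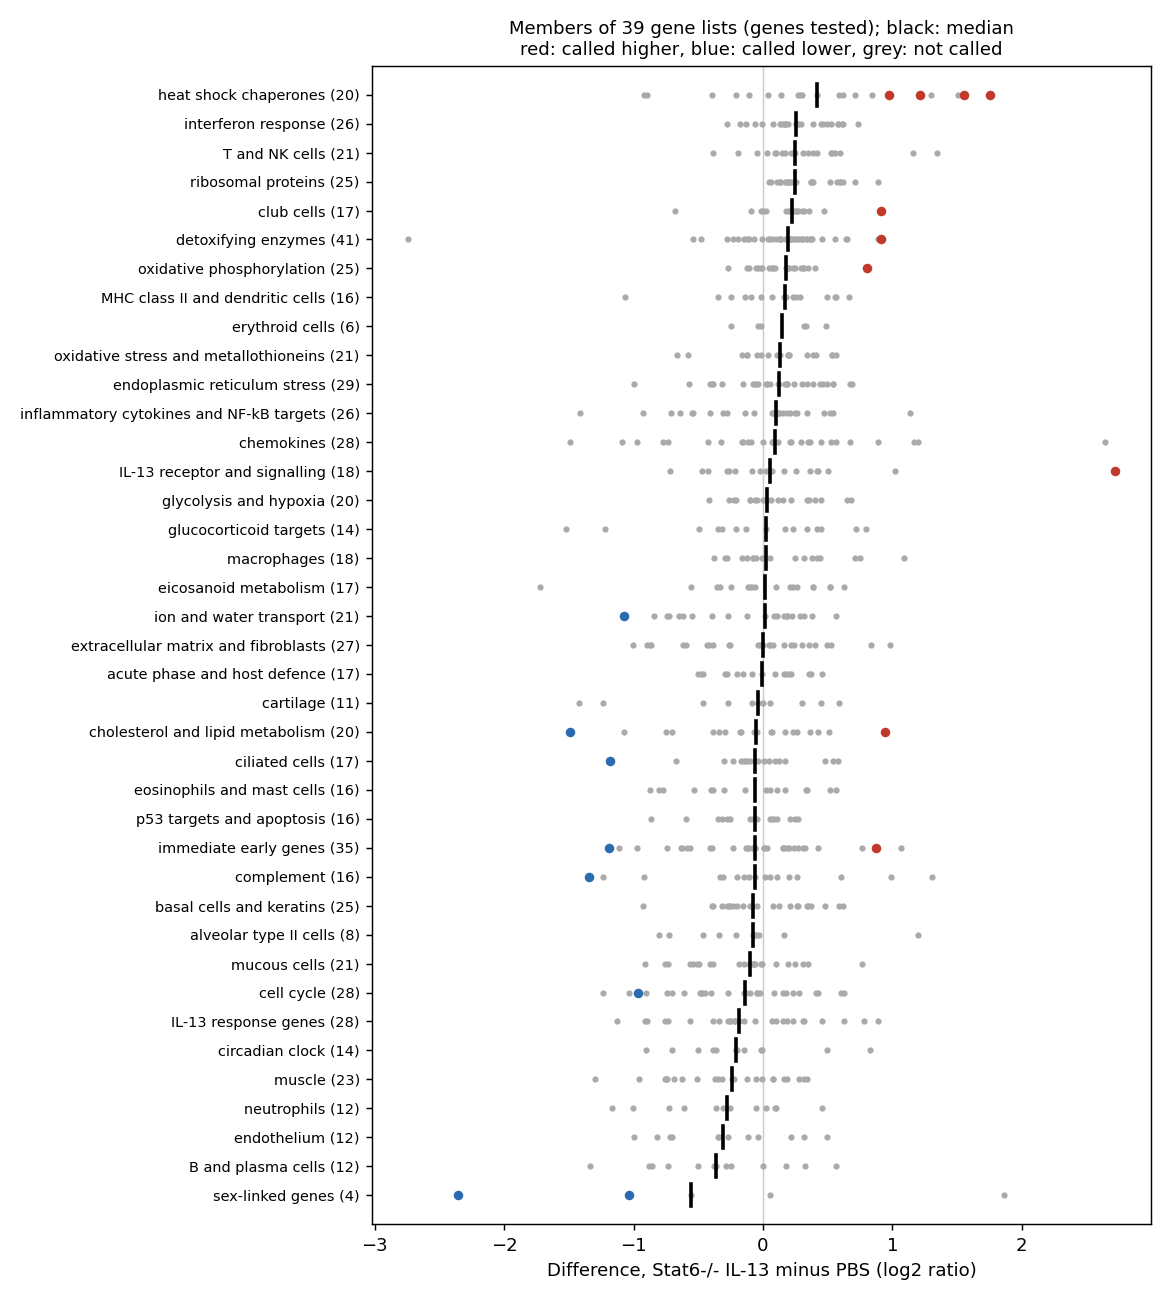
Difference between Stat6-/- IL-13 and PBS perfusate (log2 ratio, horizontal) for each tested probe of 39 gene lists, ordered by the list's median (black bar); red points were called higher, blue points called lower, grey points not called, and the number of genes tested follows each name. The heat shock list has 4 red points and a median of 0.42, and the IL-13 response list has no called member and a median of -0.19.

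Over all 39 lists, which hold 852 genes of which 733 were tested, 17 genes were called (2.32%), beside 0.599% of all probes called in either direction. The first share counts genes and the second counts probes. The lists were chosen with earlier results of these data known and include Il13 and the sex-linked genes, so the gap between the shares is no result. Genes of lipid metabolism moved both ways. Scd2, a desaturase that makes monounsaturated fatty acids, stood at -0.04, 0.18, -0.36, -0.29 and -0.18 in PBS and at -1.82, -1.07, -1.33, -1.88 and -2.04 in Stat6-/- arrays. The groups were separate, with a fall by 1.49 ± 0.18 on the log2 scale (2.81-fold; limma adjusted p = 7.8e-04), and the fall stayed in its call without any 1 array, with differences from -1.62 to -1.38. Scd2 averaged -1.87 in Stat6+/-, -1.49 in Epi+ and -0.50 in OVA arrays. Its relative Scd1 was also lower on every Stat6-/- array than on any PBS array, but its difference of -1.07 ± 0.36 did not pass (limma adjusted p = 0.14), and neither did that of the sterol enzyme Cyp51, -0.75 ± 0.27. Plin2, which coats lipid droplets, rose by 0.94 ± 0.17 (limma adjusted p = 0.02), from between -0.57 and 0.14 to between 0.21 and 1.14 with no overlap. The Plin2 call ended without PBS replicate 22, 23 or 24 or Stat6-/- replicate 10 or 13, where its adjusted p reached 0.076. Of 20 genes in this list 1 rose and 1 fell, and its median was -0.06.

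In the complement list 1 of 16 genes was called, beside 0.599% of all probes. C1ra, a protease of the first complement component, stood at 0.83, 0.68, 0.72, 0.13 and 0.96 in PBS and at -0.77, -0.53, -0.97, -0.43 and -0.70 in Stat6-/- arrays, a fall by 1.34 ± 0.21 on the log2 scale with no overlap (2.54-fold; limma adjusted p = 0.0092). Its partner protease C1s1 was lower on every Stat6-/- array too, by -1.23 ± 0.28, and missed the threshold (limma adjusted p = 0.054), and C2, which the C1 complex cleaves, differed by -0.92 ± 0.31 with the same separation (limma adjusted p = 0.14). C1ra averaged -1.16 in Stat6+/-, -0.81 in Epi+ and 0.22 in OVA arrays. In the other groups that held IL-13 the 3 genes had means from -1.43 to -0.81.

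Cd7, a surface protein of T and NK cells, fell by 1.32 ± 0.20 on the log2 scale (limma adjusted p = 0.0048), from between 0.54 and 1.54 in PBS to between -0.73 and -0.02 in Stat6-/- arrays. It is in none of the lists. The 21 genes of the T and NK cell list had no call in limma, beside 0.599% of all probes. Of them 1 had an unadjusted p under 0.05, beside 19.5% of all probes. The list's median was 0.25, opposite in sign to Cd7. The mean level of 20 T and NK cell probes on each array ran from -0.35 to -0.18 in PBS and from -0.10 to 0.26 in Stat6-/- arrays. In bulk samples, fewer cells of a type and less RNA per cell cannot be told apart. Arl2bp, which binds the small GTPase Arl2, fell by 2.24 ± 0.31 on the log2 scale (4.73-fold; limma adjusted p = 0.0021), from between 0.41 and 1.75 to between -1.13 and -0.77. Micalcl, chosen after its values were seen because its call survived every array left out, fell by 1.07 ± 0.16 on the log2 scale (limma adjusted p = 0.0038), from between -0.52 and 0.17 to between -1.66 and -0.78. Arl2bp averaged -0.81, -0.85 and 1.10 in Stat6+/-, Epi+ and OVA arrays.

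**Figure D5:**
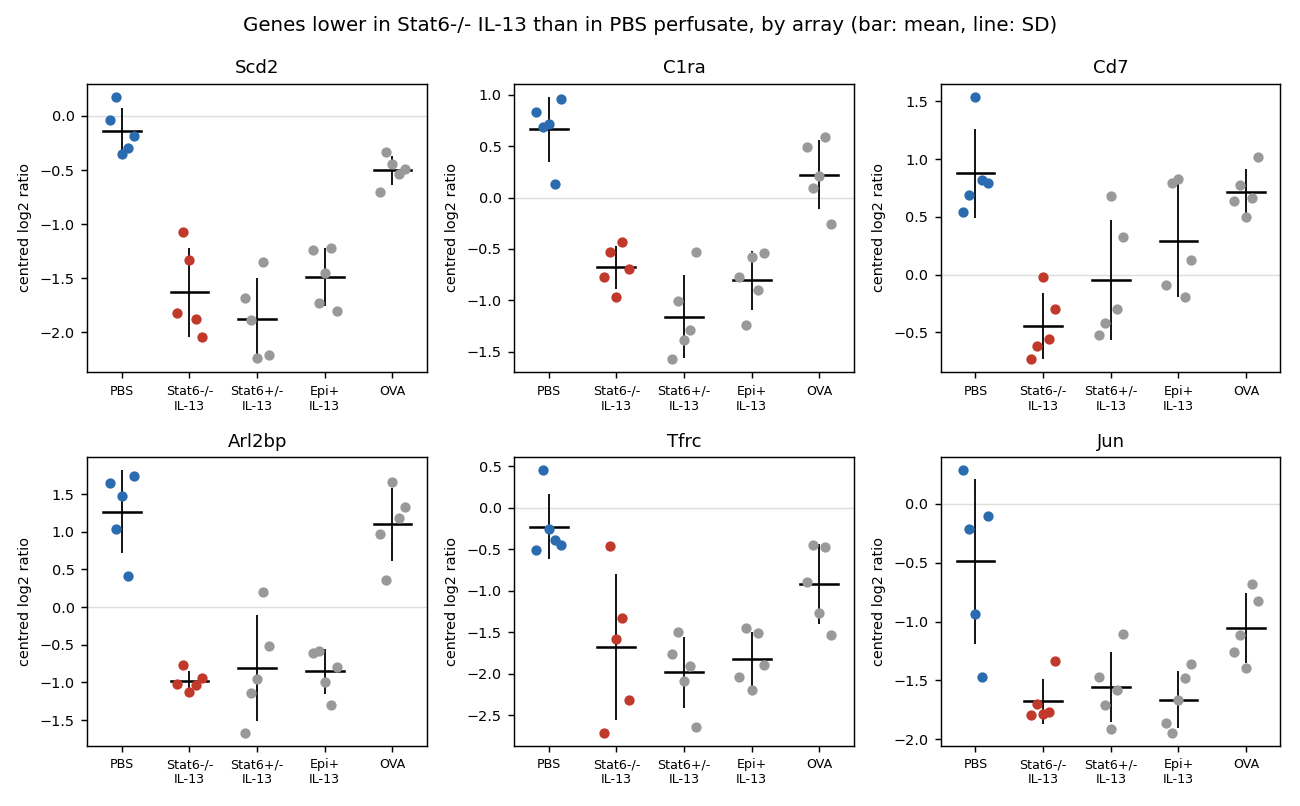
Centred log2 ratio (vertical) of 6 genes called lower in Stat6-/- IL-13 than in PBS perfusate, on each array of the 5 perfusate groups; horizontal bars are group means and vertical lines the SD. Scd2, C1ra, Cd7 and Arl2bp have no overlap between PBS and Stat6-/- IL-13 arrays, while 1 array overlaps for Tfrc (Stat6-/- replicate 11, at -0.45) and for Jun (PBS replicate 25, at -1.47).

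Further genes with large differences came from varied functions. Tfrc, the transferrin receptor, fell by 1.45 ± 0.25 on the log2 scale at 1 probe (limma adjusted p = 0.015), while a second Tfrc probe differed by -0.17 ± 0.23. The laminin subunit Lamb1 fell by 1.86 ± 0.30 (limma adjusted p = 0.011), and PBS replicate 25 at -1.25 overlapped with the Stat6-/- arrays, which ran from -2.98 to -1.17. Dpp4, a cell surface peptidase, fell by 1.45 ± 0.32, Gatad2b, a subunit of a nucleosome remodelling complex, by 1.86 ± 0.36, the mitochondrial RNA methyltransferase Mrm3 by 2.05 ± 0.42, the RNA-binding protein Hnrnpd by 1.24 ± 0.26 and the ubiquitin ligase subunit Gid4 by 1.15 ± 0.25. Pgm2l1 fell by 1.25 ± 0.23, Pbld2 by 1.26 ± 0.26 and 1810014B01Rik by 1.66 ± 0.35. These 8 genes had limma adjusted p between 0.022 and 0.044, and each was lower in all 5 preparations. Of the falls with the largest size, those of Izumo1r, Nfe2 and Cypt12 rested on fewer arrays. Izumo1r, a folate receptor relative, had values on 3 PBS arrays (3.88, 2.22 and 1.14) against -1.17 to -0.22 on the Stat6-/- arrays, and its second probe differed by 0.27 ± 0.21. Nfe2, an erythroid and megakaryocyte factor, had a wide range of -0.26 to 4.28 in PBS, and Cypt12 had values on 3 PBS and 4 Stat6-/- arrays that overlapped.

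Among further genes that rose, Gh, the growth hormone gene, went from between -1.09 and -0.31 in PBS to between -0.48 and 2.12, a difference of 1.65 ± 0.34 (limma adjusted p = 0.032). Its mean was 0.91 in Epi+ and -0.21 in Stat6+/- arrays, and Stat6-/- minus Stat6+/- just missed the threshold (limma adjusted p = 0.053). Th, the rate-limiting enzyme of catecholamine synthesis, rose by 1.42 ± 0.25 with no overlap (limma adjusted p = 0.02). Rbp4, the carrier of retinol in blood, rose by 1.16 ± 0.19 with no overlap (limma adjusted p = 0.013), and averaged 0.27 in Stat6+/-, 0.51 in Epi+ and -0.42 in OVA arrays. Acot1, a fatty acyl-CoA thioesterase, rose by 1.27 ± 0.29, the general transcription factor subunit Gtf2e1 by 1.23 ± 0.26, 1700007K13Rik by 1.13 ± 0.22, the pigment signal gene a (agouti) by 1.07 ± 0.22, the membrane protein Basp1 by 1.07 ± 0.21, Clec2h by 0.95 ± 0.19, the monocarboxylate transporter Slc16a7 by 0.94 ± 0.18, and Fbxo16 and Sfi1 by 0.92 each. These 9 had limma adjusted p between 0.026 and 0.049. The calls of Th and Rbp4 held in 7 and 8 of the 10 fits without 1 array, lost without PBS replicate 22 for both, PBS replicate 23 or Stat6-/- replicate 10 for Th, and PBS replicate 24 for Rbp4, with adjusted p up to 0.076 and 0.054; those of Tfrc and Lamb1 held in 6 and 9, lost without PBS replicate 22 for both and without PBS replicate 23 or 24 or Stat6-/- replicate 14 for Tfrc. The other genes of the last 2 paragraphs held in 1 to 5 of the fits, and losing PBS replicate 22, Stat6-/- replicate 13 or Stat6-/- replicate 14 was enough for most of them.

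Lists of markers of the cells that a tracheal flush can hold had at most 1 call each, beside 0.599% of all probes called. The detoxifying cytochrome Cyp2b10, which club cells express, rose by 0.92 ± 0.18 with no overlap (limma adjusted p = 0.026). It was the only call among the listed 17 club cell genes and 41 detoxifying enzymes. Its relative Cyp2b13, which is outside these lists, was also called higher, by 0.87 (limma adjusted p = 0.031), and held in 3 of the 10 fits without 1 array. Scgb1a1, the defining secretory protein of club cells, differed by 0.36 ± 0.22 without passing. Gstp1, a glutathione transferase, differed by 0.89 ± 0.21 (limma adjusted p = 0.06), and Cyp2e1 by -2.74 ± 0.73 over 3 PBS arrays (limma adjusted p = 0.10). Ccdc39, which assembles cilia, fell by 1.18 ± 0.20 with no overlap (limma adjusted p = 0.015) as 1 of 17 ciliated cell genes, while Foxj1, the master regulator of ciliated cells, differed by -0.30 ± 0.26 without passing. Kcnq1, a potassium channel, fell by 1.07 ± 0.21 (limma adjusted p = 0.026), 1 of 21 ion and water transport genes. Cox6a1, a subunit of cytochrome c oxidase, rose by 0.80 ± 0.13 (limma adjusted p = 0.012), 1 of 25 genes of oxidative phosphorylation, and its call was lost without PBS replicate 22 (adjusted p = 0.053). The calls of Cyp2b10, Ccdc39 and Kcnq1 were lost without PBS replicate 22, 23 or 24 or Stat6-/- replicate 10, 13 or 14, and that of Cyp2b10 also without Stat6-/- replicate 11, with adjusted p up to 0.10.

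Lists of mucous cells (21 genes), basal cells (25), macrophages (18), neutrophils (12), eosinophils and mast cells (16), B and plasma cells (12), muscle (23), cartilage (11), endothelium (12) and erythroid cells (6) had no call in limma, and between 0 and 5 of their genes had an unadjusted p under 0.05. Over all probes 0.599% were called and 19.5% had such a p, so the lack of calls does not set these short lists apart. Because the values are ratios to a reference, they do not show whether a marker is present at all. The 25 ribosomal protein genes had no call in limma and 9 with an unadjusted p under 0.05, all higher, and a median of 0.25. Over all probes 10.2% had such a p and were higher. The differences of all 25 probes lay above 0. The mean level of 24 of them on each array ran from -0.41 to -0.08 in PBS and from -0.02 to 0.18 in Stat6-/- arrays. Their part in the differences of other genes was not tested. Of 28 cell cycle genes Mcm6, a subunit of the replication helicase, fell by 0.97 ± 0.20 (limma adjusted p = 0.031), and Top2a (-1.24 ± 0.32), Mki67 (-1.04 ± 0.36) and Mcm7 (-0.90 ± 0.26) did not pass; the Mcm6 call held in 3 of the 10 fits without 1 array, those without PBS replicate 25 or Stat6-/- replicate 11 or 12. Of 28 chemokines none was called by limma and 11 had an unadjusted p under 0.05, 7 higher and 4 lower, beside 10.2% and 9.28% of all probes. The neutrophil attractant Cxcl5 ran from -2.29 to -0.91 in PBS and stood at 2.54, -1.17, 0.87, 1.89 and 0.57 in Stat6-/- arrays, with Stat6-/- replicate 11 inside the PBS range, and its difference of 2.64 ± 0.62 missed the threshold (limma adjusted p = 0.06). Cxcl15 (1.20 ± 0.39), Cxcl1 (1.16 ± 0.53) and Ccl8 (-1.49 ± 0.52) did not pass either.

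Y-linked genes were lower in part of the Stat6-/- arrays. Eif2s3y stood at 1.16, 1.34, 1.06, 0.65 and 1.34 in PBS and at -3.45, -2.11, -1.93, 1.28 and 0.00 in Stat6-/- replicates 10 to 14, a difference of -2.35 ± 0.46 (limma adjusted p = 0.027), while its second probe differed by 0.06 ± 0.50. Uty fell by 1.04 ± 0.21 on the log2 scale (limma adjusted p = 0.032), and Xist, which is transcribed from an inactive X chromosome, differed by 1.86 ± 0.68 (limma adjusted p = 0.16), highest in Stat6-/- replicates 10, 11 and 12 at -0.09, 0.91 and -0.33. Without these 3 arrays 24 probes were called, 13 of them among the 101, and Hsph1, Hspe1, Cacybp and Scd2 remained called. With low Y-linked signal as a covariate in place of leaving the arrays out, Hsph1, Hspe1 and Scd2 remained called and Cacybp did not (0.92, limma adjusted p = 0.11). The covariate marked only these 3 Stat6-/- arrays and no array of another group. Both alternatives therefore rest on Stat6-/- replicates 13 and 14, and the Il13 difference was 2.57 in both. Neither adjusts for Y-linked signal or sex in the other groups. Arl2bp (-2.36), C1ra (-1.33), Cd7 (-1.34) and Micalcl (-0.95) lost their calls under both alternatives, with limma adjusted p between 0.058 and 0.13, while their differences stayed near those in all arrays, which were -2.24, -1.34, -1.32 and -1.07.

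A few of the called genes also separated Stat6-/- from the other IL-13 groups. Against Stat6+/- arrays 529 probes (3.14%) against Epi+ arrays 82 (0.486%) and against OVA arrays 683 (4.05%) were called. Among the called genes named here, 13 differed from Stat6+/- or Epi+ arrays, and Ccdc39 and Hoatz differed from both of these. These tests used the same Stat6-/- arrays as the calls against PBS, so the 13 cannot be set against the shares above. Gjb5, a gap junction connexin, rose against PBS by 0.81 ± 0.17 and was higher than in Stat6+/- arrays by 0.95 (limma adjusted p = 0.0028), with means of 0.80 in Stat6-/-, -0.15 in Stat6+/-, 0.09 in Epi+ and 0.03 in OVA arrays. Hacd2, a dehydratase of very long fatty acids, was likewise highest in Stat6-/- arrays, with a mean of 0.74 against means between -0.36 and -0.04 in the Stat6+/-, Epi+ and OVA groups. Ccdc39 averaged -0.76 in Stat6-/-, 0.01 in Stat6+/-, 0.17 in Epi+ and 0.65 in OVA arrays. Hoatz, a cilium-associated gene, rose against PBS by 0.58 ± 0.13 and reached 0.92 in Stat6+/- and 0.78 in Epi+ arrays against 0.14 in Stat6-/- arrays. Gjb5, Hacd2 and Hoatz were picked after their values were seen, and their calls against PBS held in 3, 2 and 2 of the 10 fits without 1 array (adjusted p up to 0.16), lost for all of them without PBS replicate 22 or 24 or Stat6-/- replicate 10, 11, 13 or 14.

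The differences of Stat6+/- from OVA and of Epi+ from OVA compare groups other than Stat6-/- and PBS. All perfusate arrays entered the same fit, so these tests share the reference preparations and the model's estimate of the spread with the calls against PBS. A probe with a small spread is more readily called in each test. The shares over all probes given below are therefore no matched background, and the overlap is no separate evidence. Both comparisons also use the same OVA arrays. Of the 51 probes higher in Stat6-/- than in PBS, 31 were called higher in Stat6+/- than in OVA arrays, which is 60.8% of the 51 and 11.6% of the 268 called there, where 1.59% of all probes were called higher. The same number, 31, was called higher in Epi+ than in OVA arrays, 22.3% of the 139 called there (0.824% of all probes). Of the 50 lower probes 14 were called lower in Stat6+/- than in OVA arrays (1.99% of all probes) and 15 in Epi+ (1.2%). The median difference of the 51 higher probes was 0.71 in Stat6+/- and 0.81 in Epi+ minus OVA, beside -0.01 for all probes in both, and that of the 50 lower probes was -0.60 and -0.68.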

How the data were processed

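Tracheal perfusate RNA was hybridised against a reference on 2-channel spotted arrays. The authors deposited log2 ratios, 1 table per array; no source used here states the normalization, the dyes or the image processing, and no intensities were used, so dim spots could not be filtered. Each array was centred on its median and spots of 1 accession were averaged (19152 spots, 18272 probes). Probes with values on at least 3 arrays of every group were tested (16873, of which 14025 had 1 gene symbol, from the platform annotation updated through the RefSeq table of GRCm38.p6). All 25 perfusate arrays, 5 groups of 5, were fitted with limma 3.58.1 in R 4.3.3, with group and the 5 reference preparations as fixed terms, and p-values were adjusted by Benjamini-Hochberg over all probes tested; a call is an adjusted p under 0.05. Scripts were tested on simulated data. The comparison, its 39 gene lists and the rule for named genes were chosen with earlier results of these data known. That rule takes Il13, Stat6, the sex-linked genes, up to 20 called genes with the largest difference in each direction, called list members, and the members of a described list with the largest differences. Precision is limited by how few arrays each group holds. The alternatives were the centring or scaling, the block, the arrays entered, each array or preparation left out, the filter, the probe averaging and the thresholds.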

Additional observations from a re-analysis of the deposited data

Results flagged for a closer look

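Single arrays stood far from the rest of their group of 5 for 17 of 196 groups of values looked at, where about 1 in 20, or 9.8, would do so by chance. Of these, 9 were on PBS replicate 25, which lay highest for Dnaja1 (1.30), Hspd1 (1.44), Serpinh1 (1.51), Trib3 (1.28), Cyp2b13 (0.48) and Gjb5 (0.74) and lowest for Hspa4l (-2.28), Lamb1 (-1.25) and Hacd2 (-0.84). PBS replicate 24 lay highest for Cd7 (1.54) and lowest for Ccl11 (-1.32), and PBS replicate 23 lay highest for Tfrc (0.45) and Cxcl15 (-0.20). Among the Stat6-/- arrays, replicate 10 lay highest for Psma4 (1.96), replicate 12 lowest for Cox6a1 (-0.49), replicate 13 highest for Hpgds (1.23) and replicate 14 highest for Jun (-1.34).

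Among the genes called against PBS that are named here, 13 also differed between Stat6-/- IL-13 and another IL-13 group by limma's test of that difference. Both tests used the same Stat6-/- arrays. Higher in Stat6-/- than in Stat6+/- arrays were Acot1 by 1.25, Il13 by 0.99, Hacd2 by 0.96, Gjb5 by 0.95, the cytochrome Cyp2b13 by 0.67 and the calcium-binding protein Pef1 by 0.53. Lower were Izumo1r (-2.41), Eif2s3y (-1.72), Lamb1 (-1.18), Basp1 (-0.85), Ccdc39 (-0.77), Hoatz (-0.77) and the phospholipid synthesis enzyme Selenoi (-0.66). Ccdc39 (-0.93) and Hoatz (-0.63) were lower than in Epi+ arrays as well. Cyp2b13, Pef1 and Selenoi were named after their values were seen.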

How the results depend on the processing

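Il13 kept its direction in every alternative run, from 2.59 to 2.86 with 1 array left out, and lost its call only in a fit of the 10 arrays of both groups alone (2.72, limma adjusted p = 0.09). The count of 101 calls moved widely: 4 with values as deposited, 255 with scaled arrays, 264 after quantile normalization, 16 without the reference block, 7 with low Y-linked signal as a covariate, 24 without the 3 arrays of low Y-linked signal, 9 at an adjusted p under 0.01, and 45 with a difference over 1. In the 10 arrays alone limma called 0, with 2027 probes at an unadjusted p under 0.05. Without reference preparation 1.1, 1.2, 1.3, 1.4 or 1.5 the count was 23, 16, 13, 229 or 11, and with 1 array left out it ran from 12 to 547. Over the 86 called genes with 1 symbol other than Il13, 1274 of 2556 gene and setting pairs kept the call, 1282 lost it and 0 changed direction. The cause was not tested. Stat6, at 0.03, turned to -0.18 as deposited, -0.033 with scaled arrays, and -0.035 and -0.080 without preparation 1.4 and 1.5; with 1 array left out it ran from -0.063 to 0.090, below 0 without PBS replicate 24 or 26 or Stat6-/- replicate 12 or 14. The second Eif2s3y probe, at 0.06, turned to -0.15 as deposited, to -0.069, -0.026 and -0.031 without preparation 1.1, 1.3 and 1.5, and to -0.31 under both alternatives on low Y-linked signal; with 1 array left out it ran from -0.14 to 0.26, below 0 without PBS replicate 25 or 26 or Stat6-/- replicate 10. The reference preparation pairs 1 array of each group and is a block in the reported values and in the fit of the 10 arrays alone. By replicate number, no paired analysis was possible because the Stat6-/- and PBS groups share none.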
